A study of Mus musculus with 16 samples.

Results

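Killer lectin-like receptors are described here in CD4 T cells of the mouse spleen, for 5 genes: Klrg1, Klrd1, Klrk1, Klrc1 and Klre1. They are 5 of the 19531 genes that the platform table ties to a probe set with a single symbol, and each of the 5 was read by 1 probe set. Klrg1 and Klrd1 were among the 12798 genes with enough signal to be tested, and Klrk1, Klrc1 and Klre1 were not. Regulatory T cells (Treg, CD3+CD4+GFP+) and conventional T cells (Tconv, CD3+CD4+GFP-) had been double-sorted from the spleens of male mice aged 6 weeks. All mice carried a GFP reporter in the Foxp3 gene, so that no group has an unmodified Foxp3 locus. The Foxp3-GFP allele (fusion) makes Foxp3 and GFP as 1 joined protein, and the Foxp3-IRES-GFP allele (ires) makes GFP as a separate protein from the same transcript. Both alleles were on the B6 and on the NOD background, which gave 8 groups of 2 arrays: fusion and ires Treg and fusion and ires Tconv, each from B6 and from NOD. NOD mice develop autoimmune diabetes. Separate animals, pooled animals and repeat hybridisations are not distinguished by the labels. The p-values therefore rest on how far the arrays of a group lay apart, which may be a technical spread. That spread was pooled over the 8 groups and drawn towards the spread of the other genes tested. A p-value can therefore understate the spread of a single gene or group.

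The killer lectin-like receptors are C-type lectin-like proteins of the cell surface, found mostly on natural killer (NK) cells and on activated or memory T cells, and many of their genes lie together in the NK gene complex. CD94, the product of Klrd1, pairs with NKG2A (Klrc1) as an inhibitory receptor or with NKG2C or NKG2E (Klrc2, Klrc3) as an activating receptor for the nonclassical MHC molecule Qa-1. NKG2D (Klrk1) recognises stress-induced ligands such as H60 and Rae-1 and signals through the adaptors DAP10 (Hcst) and DAP12 (Tyrobp). KLRG1 is an inhibitory receptor for cadherins and is a marker of differentiated effector T cells, including an effector subset of Treg, and KLRE1 is an NK cell receptor that pairs with KLRI1 or KLRI2. In the mouse reference GRCm38.p6 all 5 genes lie on chromosome 6, where Klrg1 comes first, the Klrb1 genes follow, and Klre1, Klrd1, Klrk1, Klrc3, Klrc2 and Klrc1 stand side by side.

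The genes that define the sort were checked first. Foxp3 lay between 11.37 and 12.16 on the log2 intensity scale on the 8 Treg arrays and between 7.01 and 8.18 on the 8 Tconv arrays. Cd4 was at 11.04 or above on all 16 arrays, and the median intensity of the arrays ran from 86.7 to 99.0. The NK cell receptor gene Ncr1 lay between 4.07 and 5.02 and the NK1.1 gene Klrb1c between 4.06 and 5.81, below the filter of log2 6.06 on all 16 arrays. Other lineage markers were not below it throughout. The CD8 gene Cd8b1 lay between 8.42 and 8.81 on Tconv and between 7.61 and 8.73 on Treg arrays, above the filter on all 16. Cd8a ran from 5.95 to 6.82 and Zbtb16, the regulator of NKT cells, from 5.86 to 7.21. The part of CD8 T or NKT cells in these values was not tested. Trdc, the constant region of the gamma-delta T cell receptor, was not analysed here.

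Klrg1 was the member high in Treg. Its log2 intensities were 10.46 and 10.10 in B6 fusion Treg, 10.09 and 8.65 in B6 ires Treg, 8.86 and 8.87 in NOD ires Treg, and 8.75 and 8.55 in NOD fusion Treg. In Tconv they were 5.70 and 6.41 in NOD fusion, 5.38 and 5.76 in B6 fusion, 5.61 and 5.33 in NOD ires, and 5.11 and 5.34 in B6 ires. Every Treg array lay above every Tconv array, with the lowest Treg array at 8.55 and the highest Tconv array at 6.41. The order of the group means was B6 fusion Treg (10.28 ± 0.25, SD, n = 2), B6 ires Treg (9.37 ± 1.02), NOD ires Treg (8.87 ± 0.01) and NOD fusion Treg (8.65 ± 0.14). The Tconv groups followed at 6.06 ± 0.50 (NOD fusion), 5.57 ± 0.27 (B6 fusion), 5.47 ± 0.20 (NOD ires) and 5.22 ± 0.16 (B6 ires). Neighbours in this order overlapped between B6 ires and NOD ires Treg and among all Tconv groups, while B6 fusion Treg lay wholly above B6 ires Treg.

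**Figure D1:**
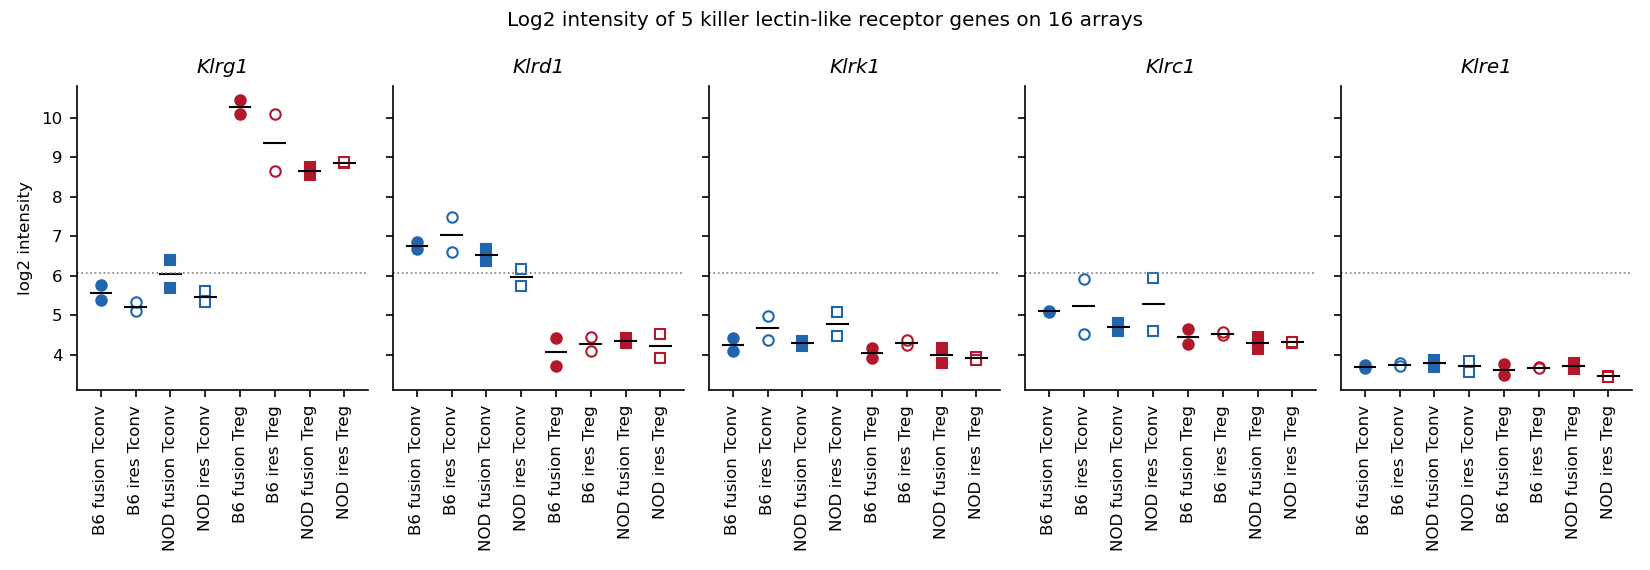
Log2 intensity (y axis) of Klrg1, Klrd1, Klrk1, Klrc1 and Klre1 in the 8 groups (x axis), with 1 point per array and a bar at the mean of the 2 arrays; blue is Tconv, red Treg, circles B6, squares NOD, filled points fusion and open points ires, and the dotted line is the filter at 6.06. Klrg1 lies at 8.55 or above on all Treg arrays and at 6.41 or below on all Tconv arrays, Klrd1 shows the opposite arrangement, and the other 3 genes stay below the filter on every array.

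Klrg1 was 13.1-fold higher in Treg than in Tconv over the 4 mouse lines, a log2 difference of 3.71 ± 0.15 (SE; adjusted p = 1.02e-12, limma with Benjamini-Hochberg adjustment, as for all adjusted p-values here). The difference was 4.43 ± 0.22 in B6 (21.5-fold, adjusted p = 2.32e-11) and 2.99 ± 0.22 in NOD (7.97-fold, adjusted p = 7.68e-09). By line it was 4.71 in B6 fusion, 4.15 in B6 ires, 3.39 in NOD ires and 2.59 in NOD fusion mice. Of all genes tested, 28.6% were called (adjusted p under 0.05) over the 4 lines, 20.8% in B6 and 18.4% in NOD, and 16.7% were called higher and 11.9% lower in Treg over the 4 lines. Klrg1 exceeded the filter on 9 arrays, the 8 Treg arrays and 1 of NOD fusion Tconv. It was therefore tested only because it is high in Treg, and a gene admitted in that way had to differ between the cell types. The Tconv values lay below the filter on 7 of 8 arrays, so the folds may understate the change. In sorted populations, fewer cells with a transcript and less transcript per cell cannot be told apart, for Klrg1 as for the other members. The NOD fusion Tconv array with Klrg1 at 6.41 also had Foxp3 at 8.18, while the other Tconv arrays had Foxp3 between 7.01 and 7.68. The part of Foxp3-expressing cells in that value was not tested.

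Within Treg, Klrg1 was lower on the NOD background. The 4 B6 arrays held 8.65, 10.09, 10.10 and 10.46, and the 4 NOD arrays 8.55, 8.75, 8.86 and 8.87, so that 3 of the B6 arrays lay above all NOD arrays and 1 lay among them. Klrg1 fell by 1.07 ± 0.22 (log2) in NOD against B6 Treg, which is 2.09-fold (adjusted p = 0.00217), in a comparison in which 21.0% of genes were called. The NOD minus B6 difference was -1.63 in fusion mice and -0.50 in ires mice, and the ires value turned to 0.21 without B6 ires Treg replicate 1. The B6 ires Treg arrays set its size, since the difference was -0.71 without replicate 1 (10.09; adjusted p = 0.00535) and -1.43 without replicate 2 (8.65; adjusted p = 1.04e-05). Whether strain differences in sequence under the probes affect any NOD against B6 value was not examined.

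In Tconv the same strain difference of Klrg1 was 0.37 ± 0.22 (adjusted p = 0.232), where 15.9% of genes were called. The strain effect in Treg minus that in Tconv was -1.44 ± 0.31 (adjusted p = 0.0310), and 0.820% of genes were called in this test of the difference. The call was lost with quantile normalization (-1.53, adjusted p = 0.0522), with trend and robust variances (adjusted p = 0.213) and with array weights (adjusted p = 0.0769). It was also lost in 9 of the 16 fits that leave out 1 array, in which the difference ran from -1.79 to -1.08.

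The reporter allele gave no called difference of Klrg1. Fusion minus ires was 0.35 ± 0.22 in Treg (adjusted p = 0.841) and 0.47 ± 0.22 in Tconv (adjusted p = 0.999), in comparisons in which 0.609% and 0.0234% of genes were called. The allele difference in Treg less the one in Tconv was -0.12 ± 0.31 (adjusted p = 1.00, 0.0469% of genes called). In Treg the allele difference was 0.91 in B6 and -0.22 in NOD, and the difference between these, -1.12 ± 0.44, was not called (adjusted p = 0.763, 0.0391% of genes called). It was called without B6 ires Treg replicate 1, at -1.84 (adjusted p = 0.0376), and was -0.41 without replicate 2.

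The pair of B6 ires Treg arrays that differed by 1.44 in Klrg1 also differed in Gzmb, the cytotoxic protease granzyme B. Gzmb was at 9.35 on replicate 1 and at 7.58 on replicate 2, while Foxp3 was at 11.79 and 11.77. Cst7, the inhibitor of lysosomal cathepsins cystatin F, stood the other way, at 9.69 and 10.12. Other effector genes were closer on the 2 arrays, with Ccr8 at 8.80 and 8.60, Tnfrsf4 at 11.19 and 11.17 and Tnfrsf9 at 10.48 and 10.66. Itgae was at 9.40 and 8.61. The arrays were thus apart in some effector genes and alike in Foxp3 and others, and what separates them was not tested.

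Klrd1, the gene of CD94, had the opposite arrangement. In Tconv its log2 intensities were 6.60 and 7.49 in B6 ires, 6.67 and 6.86 in B6 fusion, 6.39 and 6.67 in NOD fusion, and 6.18 and 5.75 in NOD ires. In Treg they were 3.71 and 4.41 in B6 fusion, 4.09 and 4.45 in B6 ires, 4.29 and 4.43 in NOD fusion, and 3.92 and 4.53 in NOD ires. Every Tconv array, from 5.75 upwards, lay above every Treg array, of which the highest was at 4.53. The 4 Treg groups overlapped one another, and among Tconv only NOD ires lay wholly below the other groups.

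Klrd1 differed by -2.35 ± 0.13 in Treg against Tconv over the 4 lines, a 5.09-fold lower level (adjusted p = 7.52e-11). The difference was -2.74 ± 0.19 in B6 (6.68-fold, adjusted p = 2.49e-09) and -1.96 ± 0.19 in NOD (3.88-fold, adjusted p = 2.52e-07). By line it was -2.77 in B6 ires, -2.71 in B6 fusion, -2.17 in NOD fusion and -1.74 in NOD ires mice. Klrd1 passed the filter on 7 arrays, all of them Tconv, so that it too had to differ once it was tested. Its Treg values were below the filter on all 8 arrays, and its folds may understate the change in the same way.

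Klrd1 also fell in NOD Tconv. It was between 6.60 and 7.49 on the 4 B6 Tconv arrays and between 5.75 and 6.67 on the 4 NOD Tconv arrays, and the ranges overlapped at 1 NOD fusion array. The difference was -0.66 ± 0.19 (1.58-fold, adjusted p = 0.0257), with -1.08 in ires and -0.24 in fusion mice. Without B6 ires Tconv replicate 2, the array at 7.49, it was -0.43 and no longer called (adjusted p = 0.0859). The call was lost as well with quantile normalization (adjusted p = 0.0972) and without B6 fusion Tconv replicate 2, NOD fusion Tconv replicate 1 or NOD ires Tconv replicate 2 (adjusted p between 0.0622 and 0.0690).

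In Treg the NOD minus B6 difference of Klrd1 was 0.13 ± 0.19 (adjusted p = 0.650), and the strain effect in Treg minus that in Tconv was 0.78 ± 0.26 (adjusted p = 0.251). The reporter alleles gave -0.04 ± 0.19 in Treg and 0.14 ± 0.19 in Tconv (fusion minus ires, both adjusted p = 0.999). A strain difference of CD94 transcript confined to Tconv was thus not shown, since the test of the difference between the cell types missed the threshold.

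**Figure D2:**
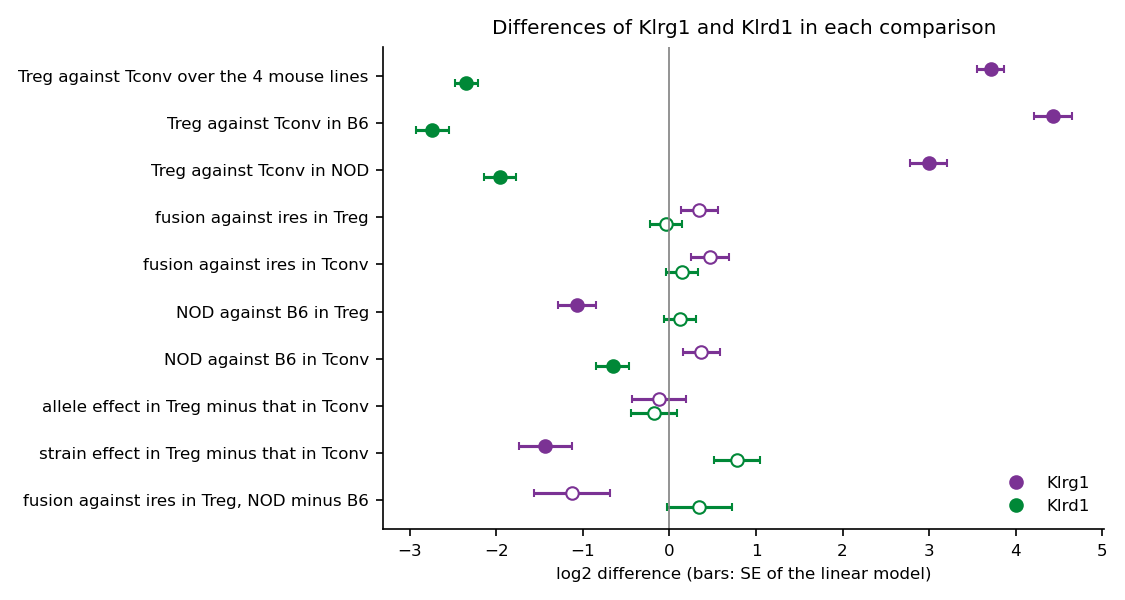
Log2 difference (x axis) of Klrg1 (purple) and Klrd1 (green) in the 10 comparisons (y axis), with the SE of the linear model as bars; filled points have an adjusted p under 0.05. The Treg against Tconv differences are 3.71 for Klrg1 and -2.35 for Klrd1, and the strain differences that were called are -1.07 for Klrg1 in Treg and -0.66 for Klrd1 in Tconv.

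Klrc1, Klrk1 and Klre1 stayed below log2 6.06 on all 16 arrays and were not part of the main test. Klrc1, which encodes the NKG2A partner of CD94, was at 4.54 and 5.92 in B6 ires Tconv, 5.94 and 4.61 in NOD ires Tconv, 5.09 and 5.10 in B6 fusion Tconv, and 4.80 and 4.59 in NOD fusion Tconv. In Treg it was at 4.65 and 4.26 in B6 fusion, 4.44 and 4.16 in NOD fusion, 4.50 and 4.58 in B6 ires, and 4.30 and 4.32 in NOD ires. On 5 of the 8 Tconv arrays Klrc1 lay above the highest Treg array, and 2 ires Tconv arrays, 1 of each background, stood out at 5.92 and 5.94 while their replicates were at 4.54 and 4.61.

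Klrk1, the gene of NKG2D, was at 4.42 and 4.09 in B6 fusion Tconv, 4.23 and 4.35 in NOD fusion Tconv, 4.38 and 4.99 in B6 ires Tconv, and 5.09 and 4.48 in NOD ires Tconv. In Treg it was at 4.18 and 3.92 in B6 fusion, 4.18 and 3.79 in NOD fusion, 4.24 and 4.36 in B6 ires, and 3.95 and 3.86 in NOD ires. The highest values were on the same 2 ires Tconv arrays as for Klrc1. The Tconv arrays at 4.38, 4.42 and 4.48 also lay above the highest Treg array, at 4.36. The remaining Tconv arrays overlapped with Treg. Klre1 was between 3.45 and 3.87 on all arrays, and the NOD ires Treg arrays, at 3.45 and 3.46, lay below all others by a small margin.

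In a fit without the filter, Klrc1 was at -0.67 ± 0.17 in Treg against Tconv (adjusted p = 0.00765), Klrk1 at -0.44 ± 0.10 (adjusted p = 0.00333) and Klre1 at -0.11 ± 0.07 (adjusted p = 0.304). In that fit 17.9% of 19531 genes were called over the 4 lines, 12.2% in B6 and 10.9% in NOD. Within backgrounds, Klrk1 was at -0.59 in NOD (adjusted p = 0.0083) and at -0.29 in B6 (adjusted p = 0.253), and the test of the difference between them missed the threshold (-0.30, adjusted p = 0.834). Klrc1 was called in neither background alone (-0.67 in B6 and -0.68 in NOD). All 4 lines had a negative difference for Klrc1 (-0.96 to -0.39), Klrk1 (-0.88 to -0.20) and Klre1 (-0.25 to -0.06). These signals lie in the lowest part of the array's range, where log2 differences are compressed and background takes a large share. The Klrc genes are close paralogs, and whether the Klrc1 probe set also takes up Klrc2 or Klrc3 transcripts was not examined. Klrc2 itself was between 4.58 and 5.33 in Tconv and Klrc3 between 2.79 and 3.36, both below the filter.

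Markers of other lymphocytes were set beside the members on the Tconv arrays on which members were high. On B6 ires Tconv replicate 2, Klrd1 lay 0.91, Klrc1 0.85 and Klrk1 0.49 above the mean of the 8 Tconv arrays. Klrb1c lay 0.98 and the chemokine receptor gene Cxcr6 0.22 above it. Ncr1 lay at -0.26 and Zbtb16, the regulator of NKT cells, at -0.14, and Cd8b1, Cd8a, Tyrobp and Il18rap lay between -0.21 and -0.01. On NOD ires Tconv replicate 1, Klrc1 lay 0.87 and Klrk1 0.58 above the mean, along with Cxcr6 (1.38), Il18rap (0.78) and Zbtb16 (0.42). Klrd1 lay at -0.40 there, and the other markers were also below their means. These were Tyrobp (-0.43), Klrb1c (-0.36), Cd8a (-0.29), Cd8b1 (-0.04) and Ncr1 (-0.02). Klrc1, Klrk1 and Cxcr6 thus lay above their means on both arrays and Klrd1 on 1 of them. The effector genes Ccl5 (9.56 and 8.71) and Cst7 (8.06 and 7.42) also had their highest Tconv level of each background on these arrays. Gzmb (5.46 and 5.15) had its lowest there. The perforin gene Prf1 (8.52 and 8.89) was highest on neither, and the Fas ligand gene Fasl (7.15 and 7.28) only on the NOD array. These are deviations of single arrays, given as a description.

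**Figure D3:**
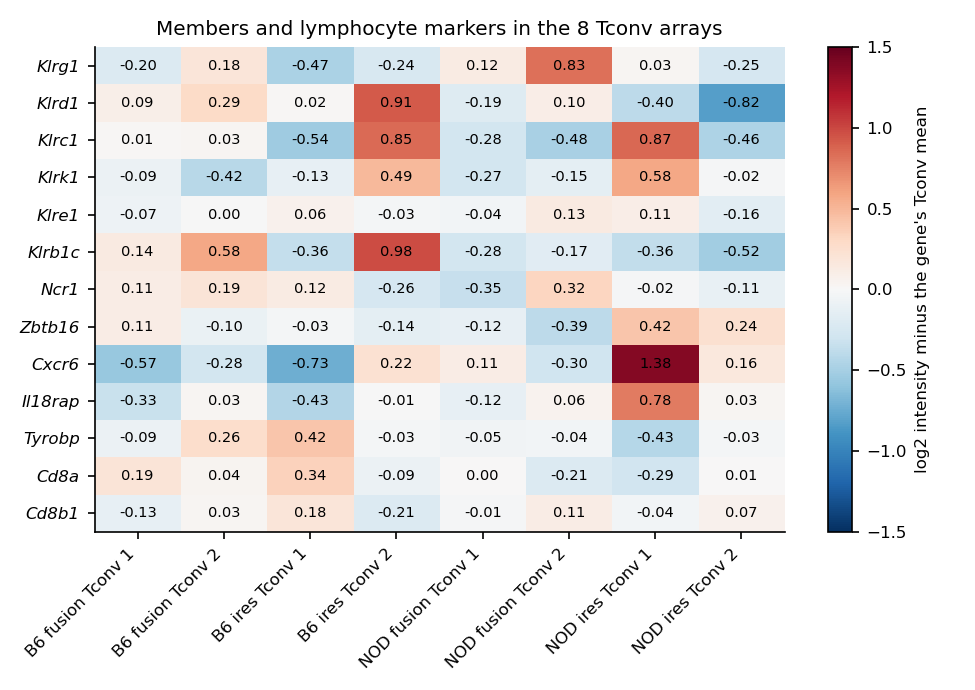
Log2 intensity minus the gene's mean over the 8 Tconv arrays (colour and printed value) for the 5 members and 8 markers of NK, NKT and CD8 T cells (rows) on each Tconv array (columns). Klrc1 is 0.85 and 0.87 above its mean on B6 ires Tconv 2 and NOD ires Tconv 1, Klrd1 is 0.91 above on the first and -0.40 on the second, and Cxcr6 is 1.38 above on the second.

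Markers of other lymphocytes moved in part with the cell types and strains. Of 7 CD8 T cell markers tested, 1 was higher and 4 were lower in Treg, with Crtam at -1.28, Gzmk at -0.45, Cd8b1 at -0.42 and Ctsw at -0.27, and Cd8a at 0.23, which was not called with centred arrays. Their mean log2 level was 7.35 to 7.68 on B6 Tconv, 7.48 to 7.62 on NOD Tconv, 7.22 to 7.34 on B6 Treg and 7.13 to 7.27 on NOD Treg arrays. The median difference of the 7 was -0.27, beside -0.01 for all genes, of which 11.9% were called lower and 16.7% higher.

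In Treg against Tconv over the 4 lines 28.6% of all genes were called. Of 7 NKT and innate-like T cell markers tested, Cxcr6 (-1.52) and Zbtb16 (-0.63) were lower and Slamf1 (1.34) was higher in Treg. Their mean level was 6.89 to 7.40 on B6 Tconv, 7.18 to 7.58 on NOD Tconv and 6.94 to 7.20 on the Treg arrays of both backgrounds. In NOD against B6 Tconv, where Klrd1 fell and 15.9% of all genes were called, 3 of the 7 rose and none fell. With quantile normalization 2 of the 7 rose. Of 9 NK cell markers tested, 3 were higher and 3 were lower in Treg, and the mean level of the list stayed between 5.74 and 6.06 on all arrays. That mean covers opposite changes. Mean levels in Tconv and Treg were 6.73 and 9.02 for Osbpl3 and 6.92 and 7.74 for Irf8. They were 10.72 and 10.00 for Txk and 6.95 and 6.15 for Adamts14. The gamma-delta list had 3 markers tested and none called in Treg against Tconv over the 4 lines. Blk, 1 of them, was called lower in NOD (-0.34, adjusted p = 0.00649), where 18.4% of all genes were called. In B6 it was at 0.15 (adjusted p = 0.227). The difference of Blk between the backgrounds was not called (-0.49, adjusted p = 0.0591). The part of such cells in the Klrd1, Klrc1 and Klrk1 values was not tested.

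The other genes of this receptor system were read as lists. Of 51 other genes of the family and the NK gene complex, 33 had a probe set of their own and 6 were tested, namely Clec2d, Clec2i, Clec2l, Klrb1f, Klrg2 and Cd69. None of the 6 was called in Treg against Tconv over the 4 lines, where 28.6% of all genes were. The median log2 difference was 0.12, beside -0.01 for all genes tested. In B6 alone, where 20.8% of all genes were called, Clec2i was called (0.33 ± 0.08, adjusted p = 0.0074). Clec2i, a lectin-like ligand of NKR-P1 receptors, was the one called by strain. It was at 9.41 to 9.68 on B6 Treg and 8.55 to 8.93 on NOD Treg arrays, which did not overlap, and fell by 0.84 ± 0.08 (adjusted p = 1.19e-06), and by 0.43 ± 0.08 in NOD Tconv (adjusted p = 0.00225). The strain effect in Treg minus that in Tconv was not called for Clec2i (-0.42 ± 0.12, adjusted p = 0.132).

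In the reference order, Klrd1 was the one gene tested in the stretch from Klre1 to Klrh1, and its neighbours Klre1 and Klrk1 had mean log2 levels of 3.73 and 4.50 in Tconv and 3.62 and 4.06 in Treg. These stood below the filter in both cell types.

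Among the ligands, H60b, which encodes a protein bound by NKG2D, was not called in Treg against Tconv over the 4 lines (0.16 ± 0.10, adjusted p = 0.280). It was called higher in NOD Treg than in NOD Tconv (0.49 ± 0.15, adjusted p = 0.0251), with -0.16 ± 0.15 in B6 (adjusted p = 0.514), and the difference between the backgrounds was not called (0.65 ± 0.21, adjusted p = 0.217). H60b differed by strain. Its levels lay between 6.10 and 6.67 on all 8 B6 arrays and between 7.92 and 9.06 on all 8 NOD arrays, with no overlap. The NOD minus B6 difference was 2.27 ± 0.15 in Treg (adjusted p = 5.36e-09) and 1.62 ± 0.15 in Tconv (adjusted p = 3.75e-07). Of 15 ligand genes listed, 5 had a probe set of their own and 2 were tested. H2-T23, which encodes Qa-1, shares its probe set with another symbol and was not analysed here.

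Of 16 adaptor and signalling genes tested, 4 rose and 3 fell in Treg, in a comparison in which 28.6% of all genes were called. Their median was -0.02 beside -0.01 for all genes. The NKG2D adaptor gene Hcst was lower in Treg by a small margin, at 7.28 to 7.63 on Tconv and 6.90 to 7.37 on Treg arrays (-0.37 ± 0.06, adjusted p = 4.97e-05). Tyrobp, the DAP12 gene, was at -0.11 ± 0.08 (adjusted p = 0.365). Of the phosphatases that inhibitory receptors recruit, the SHIP-1 gene Inpp5d rose by 0.61 ± 0.06 in Treg (adjusted p = 2.56e-07) and the SHP-1 gene Ptpn6 fell by 0.29 ± 0.07 (adjusted p = 0.00429). The exchange factor genes Vav2 (1.60) and Vav3 (0.71) rose. With each array centred on its median 3 rose and 4 fell, and with quantile normalization 4 rose and 5 fell.

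Klrg1 is known as a marker of effector Treg, and the effector Treg list was read beside it. All 20 tested genes of this list were called higher in Treg than in Tconv (median 1.86), beside 16.7% of all genes. Itgae (3.46), Tnfrsf4 (3.15), Ccr8 (3.01) and Tnfrsf9 (2.80) were at the top, with Klrg1 itself at 3.71. In NOD against B6 Treg 21.0% of all genes were called. Of the 20, 9 fell and none rose (median -0.26, all genes -0.02), and with either other scaling 7 fell. Among them were Il10, the gene of an inhibitory cytokine (-0.86), the chemokine receptor genes Ccr4 (-0.82) and Ccr8 (-0.77), and Tnfrsf9 (-0.72), beside -1.07 for Klrg1. For fusion against ires in Treg, where 0.609% of all genes were called, 7 of the 20 rose and 1 fell (median 0.44). Klrg1, at 0.35, was not called and ran from -0.01 to 0.71 over the alternatives. The list was chosen with results of these data known, and its comparisons share their arrays with those of Klrg1.

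The cytotoxic and type 1 effector genes were split. Of 32 tested, 11 were higher and 9 lower in Treg (median -0.08), beside 16.7% called higher and 11.9% called lower among all genes. The IL-2 receptor gene Il2rb (2.85), Gzmb (2.65), Cst7 (1.91) and Prdm1 (1.77), the gene of the regulator Blimp-1, were higher. The transcription regulator gene Id2 (-1.73), Cxcr6 (-1.52), Crtam (-1.28), the perforin gene Prf1 (-1.10) and the Fas ligand gene Fasl (-0.97) were lower.

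By strain in Treg, where 21.0% of all genes were called, 7 of the 32 rose and 5 fell. The counts were 8 and 3 with centred arrays and 5 and 5 with quantile normalization. The median turned from -0.04 to 0.01 with centred arrays and to 0.05 with quantile normalization. Il18r1 (1.53) and Crtam (0.91) rose, and Cst7 (-1.40), Gzmb (-0.94) and the chemokine gene Ccl5 (-0.88) fell, the last 3 in the direction of Klrg1. The Treg arrays of the strains did not overlap in Cst7. They overlapped in Gzmb (7.58 to 9.64 in B6 and 7.75 to 8.17 in NOD). They also did in Ccl5, with B6 ires replicate 2 at 8.50 and NOD fusion replicate 1 at 8.60. In Tconv, where 15.9% of all genes were called, 6 of the 32 rose and none fell (5 and 1 with quantile normalization). Crtam was at 1.46 there, while Klrd1 fell. Tbx21, the gene of T-bet, a regulator linked to KLRG1-positive effector T cells, lay between 7.13 and 7.64 on Tconv and between 6.76 and 7.73 on Treg arrays and was not called (-0.18 ± 0.09, adjusted p = 0.177). Eomes, its relative, was at 0.05 ± 0.10 (adjusted p = 0.788) and rose by 0.63 ± 0.15 in NOD Treg (adjusted p = 0.00563).

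**Figure D4:**
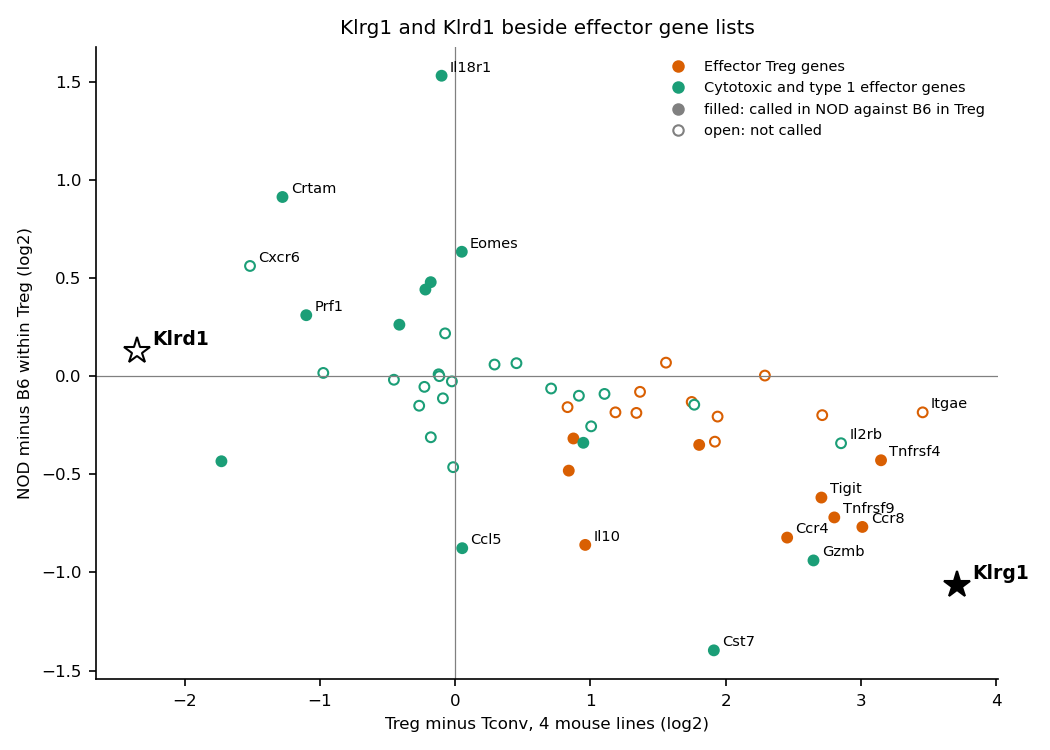
Each point is 1 tested gene of the effector Treg list (orange) or the cytotoxic and type 1 list (green), at its Treg minus Tconv difference (x axis, log2) and its NOD minus B6 difference in Treg (y axis, log2); filled points were called by strain in Treg, and stars are Klrg1 and Klrd1. Klrg1 is at 3.71 and -1.07, beside Ccr8 (3.01 and -0.77), Tnfrsf9 (2.80 and -0.72) and Gzmb (2.65 and -0.94), and Klrd1 is at -2.35 and 0.13.

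Antigen receptor segments and symbols of the Gm-number, Rik, LOC, Mir and Snor forms were left out of a search for likeness to the members. The genes whose log2 values followed a member most closely were sought among the other tested genes by Pearson's r over the 16 arrays, which share the split between Treg and Tconv. For Klrg1 these were Samsn1 (r = 0.985), Swap70 (0.979), Tnfrsf4 (0.977), Ccr8 (0.976) and Tnfrsf1b (0.975). Within the 8 Treg arrays their r with Klrg1 was between 0.784 (Tnfrsf1b) and 0.873 (Ccr8). Within the 8 Tconv arrays it was 0.647 for Samsn1 and 0.771 for Tnfrsf4, and near 0 for the other three, so that the likeness there was uneven.

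For Klrd1 the closest were Pde3b (r = 0.974), Dapl1 (0.967), Als2cl (0.962), Mettl9 (0.961) and Atp8b4 (0.960). Within Tconv, where Klrd1 was above the filter on 7 of the 8 arrays, their r ran from 0.535 (Mettl9) to 0.884 (Dapl1). Within Treg their r ran from 0.152 (Atp8b4) to 0.593 (Pde3b). The members below the filter had looser likenesses, led by Slc39a7 for Klrk1 (0.884), Sntb2 for Klrc1 (0.856) and Pkd1l3 for Klre1 (0.794). Aqp9 was among the 5 closest to both Klrk1 (0.839) and Klrc1 (0.817).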

How the data were processed

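RNA of sorted splenic CD4 T cells was measured on 16 Affymetrix Mouse Gene 1.0 ST arrays, 2 in each of 8 groups. The deposited table gives linear intensities, which the authors summarised with Affymetrix Power Tools and RMA, per the submitters' processing notes. For tool versions and genome build, the record is: not given in the sources used here. Scanner files were not used. The number of arrays limits the precision.

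Intensities were turned into log2 without a pseudocount. Of 25108 probe sets, 21157 had 1 symbol in the platform table, 1341 several and 2610 none. A gene's brightest probe set by mean over the arrays stood for it, which gave 19531 genes. The test took the 12798 genes that exceeded the 40th percentile (log2 6.06) on 2 or more arrays. Limma 3.58.1 in R 4.3.3 fitted 1 mean per group to all arrays, with 8 residual and 9.80 prior degrees of freedom. Two-sided p-values were adjusted by Benjamini-Hochberg over these genes, with a threshold of 0.05. The fit was tested on simulated data. Tables and plots used Python 3.11.15, numpy 2.4.6, pandas 2.3.3 and matplotlib 3.10.9. RefSeq names and gene order (GRCm38.p6) were used, and no coordinates.

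The members and gene lists were chosen with earlier results of these data known. Named genes were the members, the 5 tested genes closest to each by correlation, up to 4 called genes per list and comparison with the largest change, and a fixed set of partners and markers. Ptpn6, Id2, Prf1, Fasl, Il18rap, Klrc2, Klrc3, Blk and the array values of Gzmb, Cst7 and Ccl5 were added after their values were seen. So were the array values of Ccr8, Tnfrsf4, Tnfrsf9 and Itgae. Alternatives were no filter and a filter at the 60th percentile, median centring, quantile normalization, array weights, trend and robust variances, probe set means per gene, a fit of the compared groups, a replicate block and leaving out each array. Leaving out arrays without the filter, for Klrk1, Klrc1 and Klre1, and within ires Treg for Klrg1 was added after the data were seen.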

Additional observations from a re-analysis of the deposited data

Results flagged for a closer look

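The effect of the NOD background on Klrg1 was called as different between the cell types by a test of the difference itself, a call that 12 of 24 alternatives kept. NOD minus B6 was -1.07 in Treg (adjusted p = 0.00217) and 0.37 in Tconv (not called, adjusted p = 0.232), and the strain effect in Treg minus that in Tconv was -1.44 ± 0.31 (adjusted p = 0.0310, limma, and up to 0.213 over the alternatives). In Treg it was -1.63 in fusion and -0.50 in ires mice, and the ires value was 0.21 without B6 ires Treg replicate 1, an alternative chosen after seeing the data. In Tconv it was 0.49 in fusion and 0.25 in ires mice, with overlapping strains and 7 of 8 arrays below the filter.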

How the results depend on the processing

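The Treg against Tconv calls of Klrg1 and Klrd1, over the 4 lines and in each background, kept their direction and their side of the threshold under every alternative run, with Klrg1 between 3.53 and 3.89 and Klrd1 between -2.46 and -2.24 over the 4 lines. Both genes had passed the filter through the cell type in which they were high. That these calls were kept is therefore no further support for a difference. Klrg1 in NOD against B6 Treg stayed called, between -1.43 and -0.71 (highest adjusted p = 0.0331). The strain difference of Klrg1 between the cell types was no longer called with quantile normalization (-1.53), trend and robust variances (-1.44, adjusted p = 0.213) or array weights (-1.44), and leaving out single arrays gave -1.79 to -1.08. In that set the call was lost without B6 fusion Tconv 1, NOD fusion Tconv 2, B6 ires Tconv 1, NOD ires Tconv 1, both B6 fusion Treg arrays, NOD fusion Treg 2 or either NOD ires Treg array. Klrd1 in NOD against B6 Tconv kept its call in 19 of 24 alternatives. The call was lost with quantile normalization (-0.59) and without B6 ires Tconv 2, B6 fusion Tconv 2, NOD fusion Tconv 1 or NOD ires Tconv 2. Without single arrays the difference ranged from -0.88 to -0.43. The cause was not tested. Without the filter, Klrk1 (-0.44) and Klrc1 (-0.67) were called in Treg against Tconv, since they were then tested, and leaving out single arrays gave -0.52 to -0.37 and -0.85 to -0.50, alternatives chosen after seeing the data. Klrd1 was not tested under the filter at the 60th percentile, and no member had a second probe set. The labels give no pairing by replicate number, and the correlations of deviations between same-numbered arrays ran from -0.37 to 0.47 (median 0.15), so the numbers were not taken as pairs. The replicate block raised the count of called genes in all 10 comparisons, for example from 2033 to 2655 in NOD against B6 Tconv and from 6 to 16 for the allele effect between cell types. With the replicate block no call of Klrg1 or Klrd1 changed, for example Klrd1 in NOD against B6 Tconv (-0.66, adjusted p = 0.00779). Signals below log2 6.06 limit what can be said of Klrk1, Klrc1 and Klre1.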
